A study of Mus musculus with 8 samples.

Results

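Tumor-associated macrophages (TAMs) of WT mice and of Unc93b1 3d/3d mice were compared after treatment with αMARCO, by RNA-seq of 4 of the 8 libraries of the series. These 4 were taken by their labels, 2 libraries of each genotype, and the other 4 are libraries of TAMs from mice of the same genotypes that served as controls. All mice were females of 8 to 14 weeks, WT mice being C57BL/6J, and they carried EO771 breast cancer cells in the mammary fat pad and gave their tumors on day 21. The genotype label of 1 control Unc93b1 sample reads 3d/4d, and it was taken as 3d/3d from its title. The strain background of the Unc93b1 3d/3d mice is not given in the sources used here. WT mice had both copies of Unc93b1 intact, and Unc93b1 3d/3d mice were homozygous for the mutated form of UNC93B1 in all their cells, so that the genotype of the macrophage and that of the rest of the host cannot be told apart. The treated mice of both genotypes received 100 µg of the rat antibody ED31 into a vein on days 3, 6, 9 and 12. The titles of the control samples read untreated, their library names read PBS, and the methods speak of an isotype antibody. Which of these the control mice received was not settled here. TAMs were sorted as living CD45+ CD11b+ F4/80+ Gr-1- cells. The study states that 3 mice were pooled for a control sample, and nothing states whether the 2 treated samples of a genotype came from separate mice, so that p-values measure the spread between these libraries, which may be technical. The question was which transcripts of TAMs differ between the genotypes after treatment with αMARCO. Whether MARCO was still bound by the antibody on day 21 was not measured.

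MARCO is a scavenger receptor of macrophages that binds particles and is taken up when antibody clusters it. UNC93B1 is a membrane protein of the endoplasmic reticulum that carries nucleic acid-sensing Toll-like receptors (TLRs) to endosomes, where TLR3 binds double-stranded RNA, TLR7 single-stranded RNA and TLR9 DNA. Ligand binding recruits MYD88 or TRIF and turns on NF-kB and interferon regulatory factors, and with them inflammatory cytokines, chemokines and costimulatory molecules. In the 3d form the protein is made but the receptors stay outside the endosome, so the Unc93b1 transcript does not check the genotype labels. Unc93b1 was present at 749 and 707 CPM (reads relative to the total of a library, adjusted for composition) in WT and 557 and 641 CPM in Unc93b1 3d/3d TAMs.

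In their own count table the 4 libraries held 20368749 and 26411792 counts for WT and 21527051 and 16202273 counts for Unc93b1 3d/3d, and 15722 genes passed the filter on low counts. The second Unc93b1 3d/3d library stood apart. Its distance to the first library of its group on log2 CPM was 126, against 49.6 between the WT libraries and 74.5 and 76.3 between the WT libraries and the first Unc93b1 3d/3d library. It had the lowest number of genes with at least 3 counts, 17094 against 19429 to 20164 in the other 3. Its ratio to the other library of its group moved with gene length, from a median log2 ratio of 0.45 for genes of 1000 to 2000 bases to -0.54 for genes over 8000 bases, while the WT pair stayed between -0.04 and 0.04. The 36 cytosolic ribosomal protein genes summed to 36055 CPM there and to 16237 to 18258 CPM in the other 3. The mitochondrially encoded transcripts took 1.39% of its counts, 2.06% in the first Unc93b1 3d/3d library, 2.37% and 2.74% in the WT libraries and 1.03% to 1.25% in the control libraries. The 13 of them had a median log2 fold change of 0.57 in edgeR in favor of WT. Of these, 8 did not overlap in that direction, against 22.1% of all genes tested. DESeq2 called mt-Nd3 in that direction, against 0.890% of all genes tested. The part of this difference in the results below was not tested. Values without the library that stood apart are given beside many of the lists and some of the genes. They set 2 WT libraries against 1 Unc93b1 3d/3d library, which is assumed to vary as the WT pair does, so that the WT pair alone gives the spread. The chi-square per gene was 8.21 between the WT libraries and 115 between the Unc93b1 3d/3d libraries, and a gain in calls on leaving out 1 of the latter is no support for a difference.

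**Figure D1:**
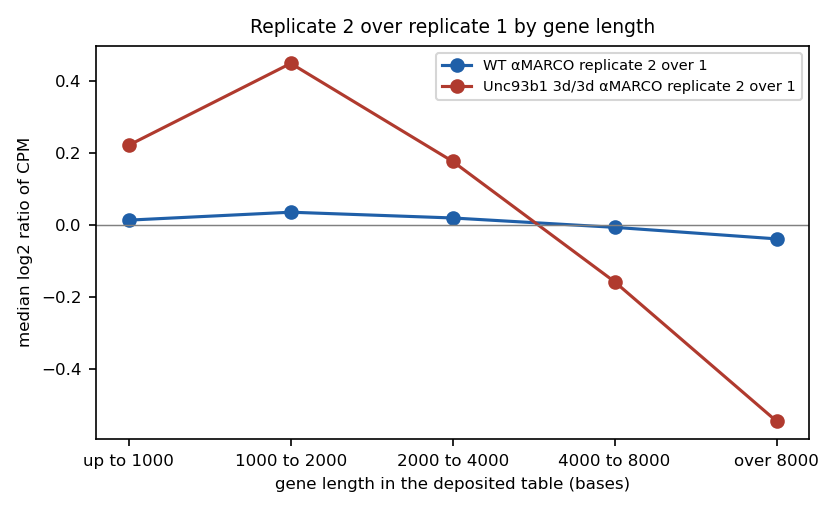
Median log2 ratio of CPM between replicate 2 and replicate 1 of each genotype under αMARCO (vertical axis) for genes binned by length in bases (horizontal axis). The WT pair runs flat near 0, and the Unc93b1 3d/3d pair falls from 0.45 at 1000 to 2000 bases to -0.54 over 8000 bases.

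Pairs of values below are replicates 1 and 2 of a group, and where a pair is set against another, WT comes first. The sorted cells carried the transcripts of macrophages in every library. Csf1r, the receptor for the growth factor M-CSF, was at 1036 and 1078 CPM in WT and 1131 and 1127 CPM in Unc93b1 3d/3d TAMs, and Adgre1, which encodes F4/80, was at 444 and 438 CPM against 372 and 331 CPM. All 14 macrophage markers passed the filter and none was called by edgeR or DESeq2 on the 4 libraries, while DESeq2 called 1 in favor of Unc93b1 3d/3d with the second library of that genotype left out. The 25 T cell markers summed to 116 and 158 CPM in WT and 116 and 101 CPM in Unc93b1 3d/3d TAMs. DESeq2 called 0 of the 21 tested, their median log2 fold change in edgeR was 1.25, and 14 did not overlap in favor of WT, against 22.1% of all genes tested. The part of T cell RNA in the differences below was not tested. Cd3d and Cd3g, which define T cells, were at 0.582 and 0.964 CPM and 1.21 and 1.5 CPM in WT and 0.181 and 0.748 CPM and 0.361 and 0.408 CPM in Unc93b1 3d/3d. The 17 fibroblast and stromal markers summed to 92.2 and 74.4 CPM against 358 and 159.5 CPM, the 13 endothelial markers to 205 and 209 CPM against 118 and 103 CPM, and the 17 epithelial and tumor markers that were listed to 49.5 and 48.9 CPM against 88 and 84.5 CPM. The 13 markers of type 2 conventional dendritic cells summed to 2698 and 2700.4 CPM against 2758 and 2529 CPM, of which Sirpa, which macrophages also express, gave 1913 and 1952 CPM against 1752 and 1679 CPM. The 15 markers of type 1 conventional dendritic cells summed to 1222 and 1209.5 CPM against 1129.5 and 1355 CPM, while Xcr1, which defines them, was at 5.63 and 4.4 CPM against 6.05 and 7.75 CPM. The 13 plasmacytoid dendritic cell markers summed to 1443 and 1440.2 CPM against 1469.7 and 1925 CPM. The 15 neutrophil markers summed to 379 and 381 CPM against 268 and 219.7 CPM, most of it Csf3r at 357 and 354 CPM against 244 and 193 CPM. The 7 neutrophil markers tested had a median log2 fold change of -0.76 in edgeR, or -0.03 without the second Unc93b1 3d/3d library. Among these 7, 1 did not overlap in favor of WT, against 22.1% of all genes tested. Another 3 did not overlap in favor of Unc93b1 3d/3d, against 22.2%. The 12 erythroid and platelet markers summed to 319.9 and 321 CPM against 407 and 887 CPM, most of it Pf4, a platelet chemokine, at 296 and 295 CPM against 377 and 837 CPM and highest in the library that stood apart. The 13 eosinophil, basophil and mast cell markers that were listed summed to 9.61 and 9.87 CPM against 4.65 and 3.06 CPM. DESeq2 called 0 of the 7 tested, and their median log2 fold change in edgeR was 1.34. Among them 6 did not overlap in favor of WT, against 22.1% of all genes tested. The part of RNA of such cells in the differences below was not tested. In bulk samples fewer cells of a type and less RNA per cell cannot be told apart.

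Under αMARCO the genes higher in WT TAMs included the monocyte receptors Cd300e and Fcgr4, the T cell chemokine Cxcl9, PD-L1 and the metal transporter Slc11a1, and those higher in Unc93b1 3d/3d TAMs included osteopontin, the chemokine receptors Ccr1 and Ccr2, and collagens. The tools disagreed on how many genes can be called. With edgeR's quasi-likelihood test, 0 of 15722 genes passed an adjusted p of 0.05 at a log2 change of 0.5 or more either way (0%), the smallest adjusted p was 0.0731, and 1076 genes (6.84%) had an unadjusted p below 0.05. DESeq2, the tool the study used, called 214 of 15722 genes at the same thresholds (1.36%), 140 with more in WT (0.890%) and 74 with more in Unc93b1 3d/3d TAMs (0.471%). Without the second Unc93b1 3d/3d library, DESeq2 called 681 of the 13539 genes to which it gave an adjusted p (5.03%), 392 with more in WT (2.90%) and 289 with more in Unc93b1 3d/3d (2.13%). EdgeR called 1252 (7.45%), with the spread taken from the WT pair alone. Without the first Unc93b1 3d/3d library DESeq2 called 4567 genes (29.4%), again with the spread of the WT pair alone, and without either WT library, where the Unc93b1 3d/3d pair alone gives the spread, 25 and 20. Every one of the 214 genes had groups that did not overlap, and so did 22.1% of all genes tested in favor of WT and 22.2% in favor of Unc93b1 3d/3d. Each of the 214 missed edgeR's threshold on the 4 libraries, with adjusted p from 0.0731 to 0.679. The genes below include called genes and others that were not called. A fold change is WT over Unc93b1 3d/3d on the log2 scale with its standard error (SE), from DESeq2 unless stated. A gene is called higher only where DESeq2 called it. The shares of 0.890% and 0.471% over all genes tested stand beside every count of list members called on the 4 libraries.

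The receptors with the largest differences were higher in WT TAMs. Fcrl5, an Fc receptor-like protein known from B cells, was at 73.2 and 65.8 CPM in WT and 0.406 and 0.136 CPM in Unc93b1 3d/3d TAMs (7.90 ± 0.54 SE, DESeq2 adjusted p = 1.78e-44). Cd300e, an activating receptor of patrolling monocytes, was at 254 and 267 CPM against 13.9 and 9.72 CPM (4.48 ± 0.29 SE, DESeq2 adjusted p = 2.71e-48). The WT libraries lay close together, and both Unc93b1 3d/3d libraries were far below them. The second Unc93b1 3d/3d value of Fcrl5 was under the 0.185 CPM that 3 counts give in that library, and its log2 fold change in DESeq2 was 7.43 without that library and 9.01 without the first. The 18 B and plasma cell markers summed to 118 and 125 CPM in WT and 79.7 and 88.7 CPM in Unc93b1 3d/3d TAMs. Of 10 tested, 2 were called higher in WT, Cd79b and Igkc, and 0 in the other direction, against 0.890% and 0.471% of all genes tested. The part of B cell RNA in the Fcrl5 difference was not tested. With Ptprm and Asb2 these genes had the smallest adjusted p in edgeR, 0.0731. Ptprm, a receptor tyrosine phosphatase, was at 13.8 and 12.9 CPM in WT and 0.135 and 0.068 CPM in Unc93b1 3d/3d TAMs, the latter at or under the level that 3 counts give. Asb2, the substrate-binding part of a ubiquitin ligase, was at 32.5 and 30.7 CPM against 1.94 and 2.45 CPM. Pydc3, a pyrin domain protein of the interferon-inducible p200 family, was at 62.5 and 67.9 CPM against 2.66 and 1.36 CPM, and Klra17, a lectin-like receptor of the Ly49 family, at 14 and 14.8 CPM against 0.496 and 0.884 CPM. Both belong to families with near-identical copies between which the counting could split reads. Htra4, a serine protease, Tmem26, a membrane protein, and Gbp2b, an interferon-inducible GTPase, were also higher in WT, with fold changes of 3.58, 3.28 and 3.17 on the log2 scale. Gpr31b, Gm15446 and Ankdd1a were at 13 and 9.3 CPM, 8.15 and 7.95 CPM and 12.2 and 10.6 CPM in WT and did not exceed 1.62 CPM in an Unc93b1 3d/3d library.

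In the other direction the largest differences were smaller. Mmp3, a matrix metalloproteinase also known as stromelysin, was at 1.12 and 1.16 CPM in WT and 9.25 and 7.14 CPM in Unc93b1 3d/3d TAMs (-2.84 ± 0.51 SE, DESeq2 adjusted p = 9.38e-06). Ch25h, which makes 25-hydroxycholesterol, was at 26.3 and 26.5 CPM in WT and 109 and 163 CPM in Unc93b1 3d/3d TAMs, a 5.16-fold ratio of the means. Tmem119, a membrane protein best known as a marker of microglia, was at 17 and 20 CPM against 80.5 and 108 CPM, and Tnfsf8, which encodes CD30 ligand, at 14.8 and 12.9 CPM against 76 and 47.7 CPM. For each of these genes the Unc93b1 3d/3d libraries were closer to each other than to WT. They were also above both WT libraries, which the selection of these genes required. Pmepa1, a target and inhibitor of TGF-β signaling, was at 3.01 and 2.97 CPM against 12 and 20 CPM. Gabbr2 and Vipr1, receptors for GABA and for vasoactive intestinal peptide, were at or under 2.04 CPM in WT and at 11.7 and 8.09 CPM and 7.81 and 8.23 CPM in Unc93b1 3d/3d TAMs. Rnf181, a ubiquitin ligase, was at 1.55 and 1.5 CPM against 11.3 and 3.67 CPM, where the library that stood apart held the lower of the Unc93b1 3d/3d values, and it was not called without the first Unc93b1 3d/3d library.

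**Figure D2:**
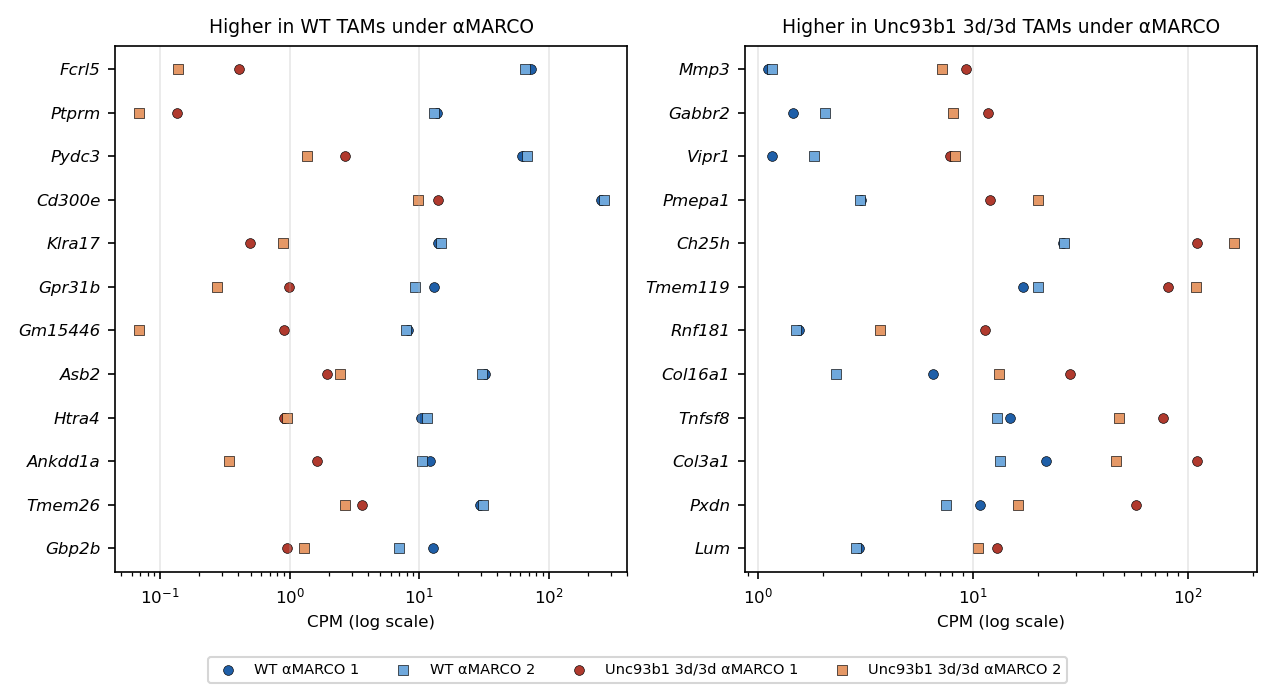
CPM on a log scale (horizontal axis) of the 12 protein-coding genes with the largest fold change in each direction. They were taken from genes called by DESeq2 whose groups do not overlap, with a mean of at least 5 CPM in the higher group. Each point is a library, with circles for replicate 1 and squares for replicate 2. The lack of overlap was thus required of all 24 genes. Fcrl5 is at 73.2 and 65.8 CPM in WT and 0.406 and 0.136 CPM in Unc93b1 3d/3d.

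Of the patrolling, or nonclassical, monocyte markers, 6 of 17 tested were higher in WT TAMs and 2 in Unc93b1 3d/3d TAMs, with a median log2 fold change of 0.85 in edgeR against -0.03 over all genes tested. Beside Cd300e, they were Pou2f2, a transcription factor of this lineage, at 287 and 303 CPM in WT and 72.5 and 57.5 CPM in Unc93b1 3d/3d TAMs (2.20 ± 0.27 SE, DESeq2 adjusted p = 2.61e-13), and Spn, which encodes CD43, at 53.3 and 61.3 CPM against 16.1 and 12.9 CPM. Fcgr4, the activating Fc receptor FcγRIV, was at 347 and 338 CPM against 92.7 and 157 CPM, a 2.75-fold ratio. Adgre4 and Ear2 were lower in level, at 19.1 and 19.6 CPM and 8.69 and 7.25 CPM in WT and 5.05 and 4.9 CPM and 2.03 and 3.06 CPM in Unc93b1 3d/3d TAMs. The 2 markers that were higher in Unc93b1 3d/3d TAMs were Cx3cr1 and Cd9. Cx3cr1, the fractalkine receptor that marks both patrolling monocytes and resident macrophages, was at 11.2 and 13.8 CPM in WT and 41.8 and 35.1 CPM in Unc93b1 3d/3d TAMs, and the tetraspanin Cd9 at 48.3 and 54.7 CPM against 115 and 165 CPM. Nr4a1, the factor on which patrolling monocytes depend, was at 749 and 862 CPM against 662 and 918 CPM and its groups overlapped. With the second Unc93b1 3d/3d library left out, the median log2 fold change in edgeR was 0.92 over the 18 of these markers tested.

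Of 15 classical monocyte markers, 3 calls favored WT and 1 favored Unc93b1 3d/3d TAMs (median 0.04 in edgeR, and 0.50 when the second Unc93b1 3d/3d library was left out). Fn1, fibronectin, was at 297 and 365 CPM in WT and 151 and 76 CPM in Unc93b1 3d/3d TAMs, and Chil3, a chitinase-like lectin, at 30.8 and 68 CPM against 10.4 and 12.6 CPM. The WT libraries were unlike each other for Chil3, and without the second Unc93b1 3d/3d library its DESeq2 adjusted p was 0.172. Ccr2, the receptor by which monocytes leave the blood, was higher in Unc93b1 3d/3d TAMs, at 445 and 445 CPM in WT and 770.1 and 885 CPM in Unc93b1 3d/3d. Ccr1 was also higher there, at 308 and 321 CPM against 536 and 682 CPM. With Cx3cr1, these made 3 of 15 chemokine receptors higher in Unc93b1 3d/3d and 0 higher in WT TAMs. Over all genes tested these shares were 0.471% and 0.890%. The median of the receptors was -0.56 in edgeR, and -0.28 without the second Unc93b1 3d/3d library.

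Several other receptors and kinases were higher in WT TAMs. The formyl peptide receptors Fpr1 and Fpr2 were at 32.1 and 26.1 CPM and 73.5 and 69.6 CPM in WT and at 5.33 and 4.15 CPM and 24 and 29.4 CPM in Unc93b1 3d/3d TAMs. Siglece, an inhibitory sialic acid receptor, was at 72.4 and 79.1 CPM against 17.6 and 20.7 CPM, and Pecam1, the adhesion molecule CD31, at 107 and 106 CPM against 27.5 and 26.2 CPM. Pecam1 is also 1 of the endothelial markers, whose sums given above include the CPM of Pecam1 itself. Of the 8 tested, 4 did not overlap in favor of WT, against 22.1% of all genes tested, and 1 in favor of Unc93b1 3d/3d, against 22.2%. Their median log2 fold change in edgeR was 0.02, or 0.46 without the second Unc93b1 3d/3d library. Cdh5, which defines endothelial cells, was at 4.42 and 4.32 CPM against 7.85 and 2.72 CPM. The part of endothelial RNA in the Pecam1 difference was not tested. Nod1, a cytosolic sensor of bacterial peptidoglycan, was at 205 and 189 CPM against 103 and 87.8 CPM. Syk, the kinase behind activating Fc receptors and lectins, was at 607 and 574 CPM against 343 and 208 CPM (1.11 ± 0.32 SE, DESeq2 adjusted p = 0.0355), and Grk3, a kinase that desensitizes G protein-coupled receptors, at 479 and 455 CPM against 239.9 and 138 CPM. For both the library that stood apart held the lowest value.

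The nucleic acid-sensing receptors that need UNC93B1 were not called. Tlr3 was at 32 and 28.5 CPM in WT and 42.4 and 34.1 CPM in Unc93b1 3d/3d TAMs, Tlr7 at 70.9 and 73.9 CPM against 82.2 and 62.5 CPM, and Tlr9 at 118 and 104 CPM against 87.1 and 27.5 CPM. Tlr9 was lowest in the library that stood apart, and without it its fold change went from 0.97 to 0.36 on the log2 scale in DESeq2. The 30 genes of endosomal TLR sensing, all tested, had a median of 0.14 in edgeR. It was 0.18 with the second Unc93b1 3d/3d library left out. Of these genes, 1 was higher in WT TAMs and 0 in Unc93b1 3d/3d TAMs. It was Ikbke, the kinase IKKε that acts on interferon regulatory factors, at 249 and 198 CPM in WT and 99.8 and 84.5 CPM in Unc93b1 3d/3d TAMs. The target of the antibody, Marco, did not pass the filter, with 0.485 and 0.386 CPM against 0.0903 and 0.068 CPM. Fcgr2b, the inhibitory Fc receptor, was at 1688 and 1598 CPM in WT and 1742 and 1761 CPM in Unc93b1 3d/3d TAMs, with a log2 fold change of -0.08 ± 0.24 SE. Of 10 Fc receptor genes tested, Fcgr4 and Fcrl5 were higher in WT and 0 were higher in Unc93b1 3d/3d.

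NF-kB is the transcription factor downstream of all TLRs. Of 23 subunits, inhibitors and target genes tested, 2 were higher in WT and 0 in Unc93b1 3d/3d TAMs, against 0.890% and 0.471% of all genes tested. The median log2 fold change of the list was 0.52 in edgeR. With the second Unc93b1 3d/3d library left out the median was 0.51. Nfkbiz, which encodes the nuclear regulator IκBζ, was at 780.3 and 811 CPM in WT and 394 and 335 CPM in Unc93b1 3d/3d TAMs (1.14 ± 0.25 SE, DESeq2 adjusted p = 0.000917). Tnip1, a brake on NF-kB that works with A20, was at 126 and 125 CPM against 67 and 64.9 CPM. Map3k8, the kinase TPL2 that links TLRs to ERK, was outside the list and at 147 and 148 CPM against 79.5 and 72.7 CPM. For each of these the lower WT library was above the higher Unc93b1 3d/3d library, as for 22.1% of all genes tested. Nfkbia, Tnfaip3 and Tnf did not pass the DESeq2 threshold. They were at 286 and 309.8 CPM, 234 and 277 CPM and 147 and 147 CPM in WT. In Unc93b1 3d/3d TAMs they were at 154 and 183 CPM, 173 and 137 CPM and 78.8 and 104 CPM. The genotypes did not overlap for them, which is likewise the case for 22.1% of all genes tested. Other cytokines included Il10, which restrains inflammation, at 45.5 and 47.5 CPM in WT and 18.7 and 25.8 CPM in Unc93b1 3d/3d TAMs, the member of 15 T cell-directing cytokines tested that was called higher in WT. Leaving out the second Unc93b1 3d/3d library, the median of these cytokines went from 0.42 to 0.23 in edgeR. Il12b was at 2.23 and 2.39 CPM against 0.858 and 0.34 CPM and was not called (DESeq2 adjusted p = 0.492).

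Among the genes that interferon-γ induces, 5 of 25 tested were higher in WT and 0 in Unc93b1 3d/3d TAMs. The shares over all genes tested were 0.890% and 0.471%. The median log2 fold change of the list was 0.65 in edgeR, and 0.64 without the second Unc93b1 3d/3d library. Cxcl9, a chemokine that draws activated T cells, was at 121 and 108 CPM in WT and 14.3 and 21 CPM in Unc93b1 3d/3d TAMs, a 6.5-fold ratio of the means (2.72 ± 0.31 SE, DESeq2 adjusted p = 7.67e-15). Cd274, which encodes PD-L1, was at 441 and 415 CPM against 204 and 181 CPM (1.17 ± 0.25 SE, DESeq2 adjusted p = 0.000513). The guanylate-binding proteins Gbp2 and Gbp4 were at 208 and 202 CPM and 322 and 301 CPM in WT and at 77.5 and 112 CPM and 142 and 134 CPM in Unc93b1 3d/3d TAMs, and the serpin Serpina3g, like them a member of a family with close copies, at 83.5 and 78.6 CPM against 10.7 and 17.7 CPM. Ccl5, another T cell chemokine, was at 42.6 and 45.4 CPM against 14.8 and 21.8 CPM and higher in WT. Cxcl9 and Ccl5 were the 2 of 24 chemokine ligands that were called. That list had a median of -0.31 in edgeR, which was 0.04 without the second Unc93b1 3d/3d library. Of 31 type I interferon-stimulated genes tested, 0 were called in either direction (1 in favor of Unc93b1 3d/3d with that library left out), their median was -0.14, and Isg15 was at 284 and 297 CPM in WT and 307 and 589.9 CPM in Unc93b1 3d/3d TAMs.

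Promoters of some of these genes are shown to place the binding motifs of the factors at the end of TLR and interferon signaling, and those printed were chosen because they hold a match. The promoters of Cxcl9, Cd274, Slc11a1, Nr1h3 and Pou2f2, all higher in WT, held 0 matches to the 3 motifs marked below. The sequences are the 250 bases before the start site, 5′ to 3′ on the gene's strand, from RefSeq on GRCm38.p6, with capitals on matches to the interferon-stimulated response element (ISRE), the GAS element (TTCNNNGAA) or the kB motif, each searched on both strands. Gbp2 (plus strand, chr3:142620413-142620662), Gbp2b (plus strand, chr3:142594597-142594846) and Fcgr4 (plus strand, chr1:171018676-171018925) hold an ISRE, Tnip1 (minus strand, chr11:54962941-54963190) holds 3 overlapping kB matches that form 1 stretch, Serpina3g (plus strand, chr12:104235897-104236146) a kB and a GAS match, Fcgr4 and Tnip1 also hold a kB and a GAS match respectively, and Cd300e (minus strand, chr11:115062040-115062289) a GAS match. Spp1 (plus strand, chr5:104434861-104435110) is shown as a gene higher in Unc93b1 3d/3d TAMs that also holds an ISRE.
Gbp2: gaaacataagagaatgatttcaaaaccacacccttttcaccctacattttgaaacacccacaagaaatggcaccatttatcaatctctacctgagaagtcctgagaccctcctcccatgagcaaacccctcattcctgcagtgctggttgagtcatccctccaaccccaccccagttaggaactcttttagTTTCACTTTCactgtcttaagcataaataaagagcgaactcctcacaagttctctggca
Gbp2b: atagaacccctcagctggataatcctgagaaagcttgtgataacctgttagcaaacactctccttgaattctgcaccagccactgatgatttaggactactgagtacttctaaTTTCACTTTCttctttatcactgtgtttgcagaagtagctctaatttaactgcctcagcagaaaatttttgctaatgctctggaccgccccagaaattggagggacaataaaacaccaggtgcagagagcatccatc
Fcgr4: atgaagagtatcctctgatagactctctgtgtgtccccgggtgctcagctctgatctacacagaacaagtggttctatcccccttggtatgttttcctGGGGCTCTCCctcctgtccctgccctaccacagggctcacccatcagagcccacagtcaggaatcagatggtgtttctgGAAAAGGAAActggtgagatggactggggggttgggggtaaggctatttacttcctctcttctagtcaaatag
Tnip1: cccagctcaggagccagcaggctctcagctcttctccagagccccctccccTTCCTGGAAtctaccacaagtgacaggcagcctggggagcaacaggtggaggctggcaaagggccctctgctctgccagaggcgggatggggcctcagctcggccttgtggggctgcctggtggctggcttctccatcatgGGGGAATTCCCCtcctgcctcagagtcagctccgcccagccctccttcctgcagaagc
Serpina3g: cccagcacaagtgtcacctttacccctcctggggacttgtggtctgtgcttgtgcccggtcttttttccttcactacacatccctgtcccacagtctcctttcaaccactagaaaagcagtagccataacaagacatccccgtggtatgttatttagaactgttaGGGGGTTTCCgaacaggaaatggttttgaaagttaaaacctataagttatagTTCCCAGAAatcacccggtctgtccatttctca
Cd300e: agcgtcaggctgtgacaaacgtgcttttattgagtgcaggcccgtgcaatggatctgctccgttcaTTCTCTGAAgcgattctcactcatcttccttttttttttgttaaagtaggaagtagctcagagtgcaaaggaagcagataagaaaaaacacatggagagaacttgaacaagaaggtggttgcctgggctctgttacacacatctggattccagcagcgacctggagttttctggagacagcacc
Spp1: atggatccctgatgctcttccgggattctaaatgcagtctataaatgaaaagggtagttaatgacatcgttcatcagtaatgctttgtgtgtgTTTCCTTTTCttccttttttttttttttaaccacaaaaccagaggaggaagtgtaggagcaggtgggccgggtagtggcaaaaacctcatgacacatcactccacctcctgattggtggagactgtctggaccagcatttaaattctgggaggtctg

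Over the whole window of 250 bases before and 50 after the start, promoters were found for 89 of the 140 genes higher in WT, 55 of the 74 genes higher in Unc93b1 3d/3d TAMs and 10179 of the 15722 genes tested. The ISRE was present in 8 of 89 (8.99%) and 3 of 55 (5.45%), against 3.31% of all promoters. The GAS element was present in 12.4% and 3.64%, against 6.89%, and the kB motif in 10.1% and 12.7%, against 1019 of all 10179. AP-1 (TGANTCA) was found in 7.87% and 9.09% against 5.17%, the E-box (CACGTG) in 8.99% and 3.64% against 1022 of 10179, the ARE (TGACNNNGC) in 15.7% and 9.09% against 1528 of 10179, and the CRE (TGACGTCA) in 0% and 3.64% against 3.17%. A match is a description of letters and not a bound site.

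Slc11a1, also called NRAMP1, which pumps iron and manganese out of the phagosome, was at 587 and 605 CPM in WT and 185 and 194 CPM in Unc93b1 3d/3d TAMs, a 3.14-fold ratio (1.66 ± 0.24 SE, DESeq2 adjusted p = 3.5e-09). Its relative Slc11a2, which exports iron from endosomes into the cytosol, was at 107 and 102 CPM against 43.2 and 42.6 CPM. Slc11a1 was the member of 21 NRF2, iron and heme genes that was called, and the list's median was 0.22 in edgeR. When the second Unc93b1 3d/3d library was left out, the median was 0.42. Nr1h3, the oxysterol receptor LXRα, was at 155 and 153 CPM against 36.8 and 47 CPM, and its target Pltp, phospholipid transfer protein, at 335 and 338 CPM against 156 and 174 CPM. Both were higher in WT, while Ch25h, described above, which makes a ligand of that receptor, was higher in Unc93b1 3d/3d TAMs. Abca1, a cholesterol exporter and LXR target, was at 249 and 258 CPM against 235 and 130.2 CPM and was not called. Of 19 genes of cholesterol efflux and LXR targets tested, 2 were higher in WT and 1 in Unc93b1 3d/3d TAMs, and with that library left out 3 were called in each direction. Acp5, tartrate-resistant acid phosphatase, was at 221 and 244 CPM in WT and 50.3 and 77 CPM in Unc93b1 3d/3d TAMs, and Acod1, the enzyme that makes itaconate, at 44.4 and 43.5 CPM against 10.7 and 12.7 CPM. Hk3, a myeloid hexokinase, was at 427 and 368 CPM against 217 and 204 CPM.

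Spp1, osteopontin, was the most abundant of the genes higher in Unc93b1 3d/3d TAMs. It was at 328 and 365 CPM in WT and 1186 and 1294 CPM in Unc93b1 3d/3d TAMs, a 3.58-fold ratio of the means (-1.83 ± 0.25 SE, DESeq2 adjusted p = 1.08e-10). Together with Cd9 it made 2 of 21 genes of lipid-associated macrophages that were higher in Unc93b1 3d/3d, against 1, Acp5, higher in WT (median -0.23 in edgeR). That split turned when the second Unc93b1 3d/3d library was left out, with 4 of 21 called in favor of WT and 3 in favor of Unc93b1 3d/3d and a median of 0.07. Oncostatin M, encoded by Osm, was at 201 and 231 CPM against 411 and 583 CPM, and the antiproliferative gene Btg2, an immediate early gene, at 424 and 482 CPM against 775 and 1017 CPM. Placental growth factor, Pgf, was at 24.9 and 28.6 CPM against 57.2 and 72.9 CPM and adrenomedullin, Adm, at 5.73 and 5.63 CPM against 16.2 and 13.9 CPM, both higher in Unc93b1 3d/3d. Vegfa and Thbs1, which promote and restrain vessel growth, were higher in WT, at 274 and 338 CPM and 1602 and 2218 CPM in WT and 127 and 140.1 CPM and 1003 and 868 CPM in Unc93b1 3d/3d TAMs. The 20 angiogenic and growth factors tested split 2 to 2 with a median of 0.03 in edgeR, and with that second library left out 2 were called in favor of WT and 4 in favor of Unc93b1 3d/3d, with a median of -0.36. Without the second Unc93b1 3d/3d library the DESeq2 adjusted p of Thbs1 was 0.197.

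Efferocytosis, the uptake of dying cells, uses bridging molecules. Gas6, which links phosphatidylserine on dying cells to MERTK, was at 74.9 and 69.7 CPM in WT and 132 and 139 CPM in Unc93b1 3d/3d TAMs (-0.89 ± 0.25 SE, DESeq2 adjusted p = 0.0342), and Mfge8, which links it to integrins, at 7.57 and 5.36 CPM against 21.2 and 18.6 CPM. They were 2 of 27 genes tested of efferocytosis and resident-like macrophages, 0 were higher in WT, and the median was -0.14 in edgeR. Leaving out the second Unc93b1 3d/3d library gave a median of -0.02. The receptor Mertk was at 90.1 and 95.5 CPM against 139 and 66.6 CPM, a range in Unc93b1 3d/3d that covered both WT libraries. Fcrls and Gpr34, known with Tmem119 from microglia, were higher in Unc93b1 3d/3d, at 65.9 and 75.2 CPM and 5.58 and 5.05 CPM in WT and 146 and 136 CPM and 16.6 and 18.4 CPM in Unc93b1 3d/3d TAMs.

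The collagen genes Col3a1, Col5a1 and Col6a1 were at 21.8 and 13.3 CPM, 11 and 6.17 CPM and 21.3 and 17.5 CPM in WT and at 109 and 46.2 CPM, 46.3 and 20.5 CPM and 104 and 36.6 CPM in Unc93b1 3d/3d TAMs, and lumican, Lum, was at 2.96 and 2.85 CPM against 12.9 and 10.5 CPM. These were the 4 of 15 fibroblast and stromal markers that were called, all higher in Unc93b1 3d/3d, against 0.471% of all genes tested. The median of the list was -0.94 in edgeR, and -0.91 with the second Unc93b1 3d/3d library left out. Without the first Unc93b1 3d/3d library Col3a1 and Col5a1 were not called by DESeq2. Col16a1 was at 6.5 and 2.31 CPM against 28.2 and 13.3 CPM, with a log2 fold change of -2.22. It was not called without the first Unc93b1 3d/3d library (-1.58) or without the second (-2.67). Pxdn, which crosslinks basement membrane collagen, was at 10.8 and 7.48 CPM against 57.3 and 16.2 CPM. Its log2 fold change was -2.00 on the 4 libraries, -2.64 without the second Unc93b1 3d/3d library and -0.82 without the first, where it was not called. Among the defining stromal markers, Pdgfra was at 8.2 and 3.97 CPM in WT and 28.7 and 12.9 CPM in Unc93b1 3d/3d TAMs. Dcn was at 3.2 and 1.89 CPM against 8.3 and 7.28 CPM. The genotypes did not overlap for either, as for 22.2% of all genes tested in favor of Unc93b1 3d/3d. Col1a1 was at 1.12 and 0.81 CPM against 1.35 and 0.204 CPM. The summed level of the list was 92.2 and 74.4 CPM in WT and 358 and 159.5 CPM in Unc93b1 3d/3d, and the part of stromal RNA in these differences was not tested. Cdh1, E-cadherin, which macrophages can also make, was at 7.33 and 9.49 CPM against 28.3 and 32.7 CPM, and Krt8, a keratin of epithelial cells, at 23.3 and 22.4 CPM against 41.7 and 36.4 CPM.

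MHC class II molecules present antigen to CD4+ T cells. Of 16 genes tested 0 were called, with a median log2 fold change of -0.65 in edgeR, and they summed to 13793 and 14255 CPM in WT and 19021 and 35956 CPM in Unc93b1 3d/3d TAMs. H2-Ab1 was at 2325 and 2329.6 CPM in WT and 3324 and 6943 CPM in Unc93b1 3d/3d TAMs (DESeq2 adjusted p = 0.128). Without the second Unc93b1 3d/3d library the median was -0.26, and H2-Ab1 had a log2 fold change of -0.50 against -1.13 on the 4 libraries. Cd86, a costimulatory ligand, was at 142 and 140.4 CPM against 147 and 167 CPM and its fold change was -0.14 ± 0.25 SE.

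Inflammasomes are complexes that cleave interleukin-1 family cytokines. Of 25 of their genes tested, 0 were called in either direction, and the median was 0.16 in edgeR. With the second library of Unc93b1 3d/3d left out DESeq2 called 3 in favor of WT and 2 in favor of Unc93b1 3d/3d and the median was 0.02. Nlrp3, the sensor, was at 183 and 202 CPM in WT and 195 and 146 CPM in Unc93b1 3d/3d TAMs, Casp1, the protease, at 98.1 and 96.8 CPM against 72.4 and 105 CPM, and Il18 at 29.3 and 28.5 CPM against 28.3 and 40.6 CPM. Il1b was at 1544 and 1771 CPM against 1757 and 3087 CPM, highest in the library that stood apart. Pycard, the adaptor ASC, was at 86.1 and 83.9 CPM against 33 and 77.4 CPM. It had a log2 fold change of 0.64 ± 0.41 SE on the 4 libraries (DESeq2 adjusted p = 0.853) and 1.38 without the second Unc93b1 3d/3d library, a value that rests on 1 of 2 Unc93b1 3d/3d libraries that were unlike each other.

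Markers of alternative activation went both ways. Of 20 tested, 4 were higher in WT, namely Fn1, Chil3, Retnla and Tgm2, and 1, Mgl2, was higher in Unc93b1 3d/3d TAMs. The median was 0.07 in edgeR, and 0.12 with the second Unc93b1 3d/3d library left out. Retnla, the secreted protein RELMα, was at 80.5 and 51.8 CPM in WT and 15.6 and 24.4 CPM in Unc93b1 3d/3d, Tgm2, transglutaminase 2, at 332 and 352 CPM against 177 and 123 CPM, and the lectin Mgl2, not called without the second Unc93b1 3d/3d library, at 88.8 and 56.2 CPM against 211 and 239 CPM. Mrc1, which encodes CD206, was at 1197 and 1099.6 CPM against 1357 and 1115 CPM with a fold change of -0.09 ± 0.26 SE. Nos2, the inducible nitric oxide synthase, was at 29 and 26.3 CPM against 16.8 and 10.5 CPM and was not called (DESeq2 adjusted p = 0.192). When the second Unc93b1 3d/3d library was left out its fold change went from 1.02 to 0.73 on the log2 scale.

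**Figure D3:**
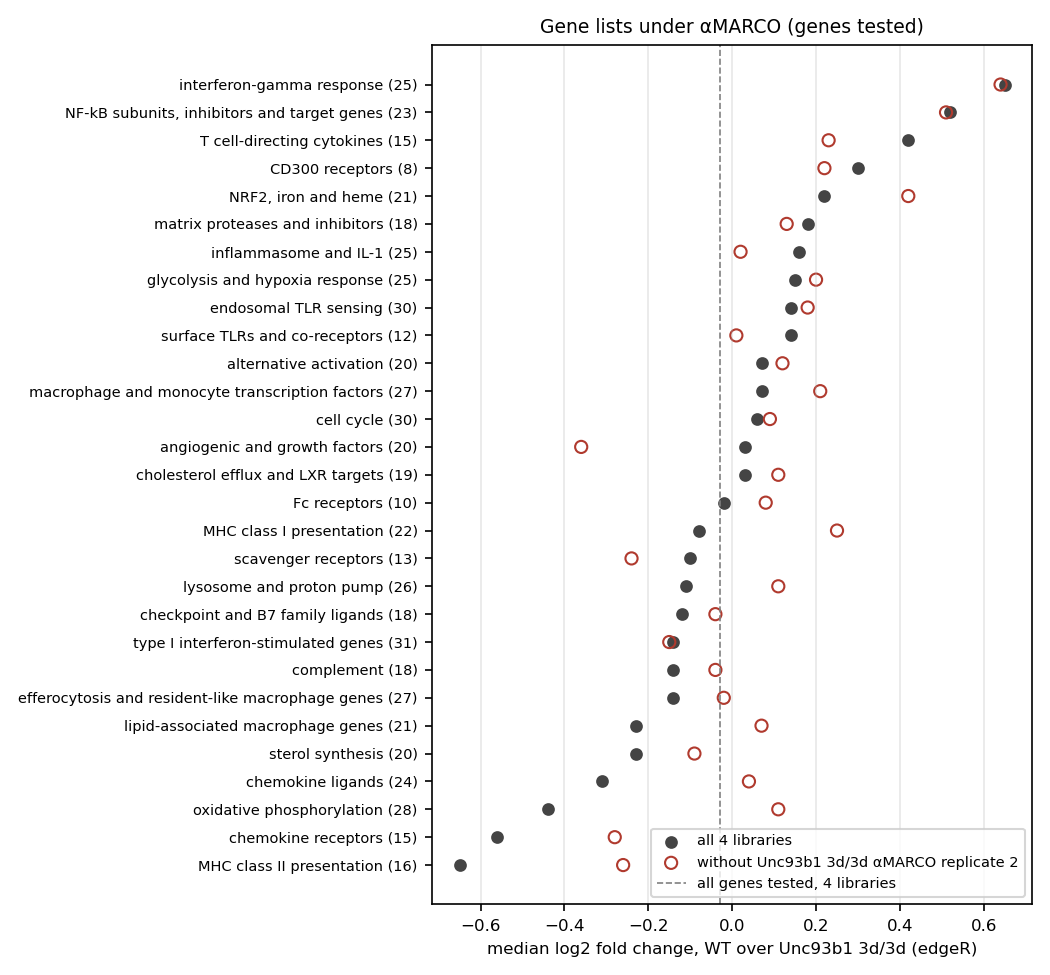
Median log2 fold change in edgeR, WT over Unc93b1 3d/3d under αMARCO (horizontal axis), of each pathway list, with the number of genes tested in brackets. Filled points use all 4 libraries and open points leave out the second Unc93b1 3d/3d library, and the interferon-γ list goes from 0.65 to 0.64 and the NF-kB list from 0.52 to 0.51 while oxidative phosphorylation goes from -0.44 to 0.11.

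The control libraries give the genotype comparison without αMARCO. In control TAMs, edgeR called 2025 of 15600 genes (13%), 1027 with more in WT (6.58%) and 998 with more in Unc93b1 3d/3d (6.40%), and no library is shared with the treated comparison. Of the 140 genes higher in WT under αMARCO, 94 were also called higher in WT in control by edgeR (67.1% of the 140 and 9.15% of the 1027) and 0 were called in the other direction. Of the 74 genes higher in Unc93b1 3d/3d, 29 were called in that direction in control (39.2% of the 74 and 2.91% of the 998), and 1, Matn2, in the other. DESeq2 called 11.8% of the genes in control, 6.09% in favor of WT and 5.75% in favor of Unc93b1 3d/3d. Of the same 140 genes it called 97 in favor of WT in control and 2, Retnla and Lyz1, a lysozyme, in the other direction. Of the 74 it called 31 in favor of Unc93b1 3d/3d and 0 in the other direction. Markers of other cell types moved with this contrast. In control the T cell markers summed to 372 and 396 CPM in WT and 239 and 184 CPM in Unc93b1 3d/3d TAMs, and edgeR called 21 of 25 in favor of WT and 1 in favor of Unc93b1 3d/3d. The 17 NK and cytotoxic cell markers summed to 209 and 185 CPM against 76.8 and 46.4 CPM, with 8 called in favor of WT and 0 the other way. In the same contrast 12 of 17 markers of mature migratory dendritic cells were called in favor of WT and 0 the other way. The part of these cells in the control calls was not tested. Cd300e was at 557 and 616 CPM in WT and 10 and 7.56 CPM in Unc93b1 3d/3d control TAMs, and Fcrl5 at 184 and 232 CPM against 0.126 and 0.254 CPM. Nfkbiz was at 529.6 and 672 CPM against 279.5 and 241 CPM, and Slc11a1 at 439 and 638 CPM against 206 and 215 CPM. Cxcl9 was at 122 and 167 CPM against 15.9 and 49.9 CPM in control, where edgeR did not call it (adjusted p = 0.187). Cd274 was at 324 and 409.7 CPM in WT and 301 and 270.3 CPM in Unc93b1 3d/3d control TAMs, with no call in control (edgeR adjusted p = 0.0901), and the difference of its genotype effects missed the threshold as well (DESeq2 adjusted p = 0.0861). For Cxcl9 and Cd274 the missing calls in control are edgeR's, which also called 0 genes under αMARCO, while their calls under αMARCO are DESeq2's.

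**Figure D4:**
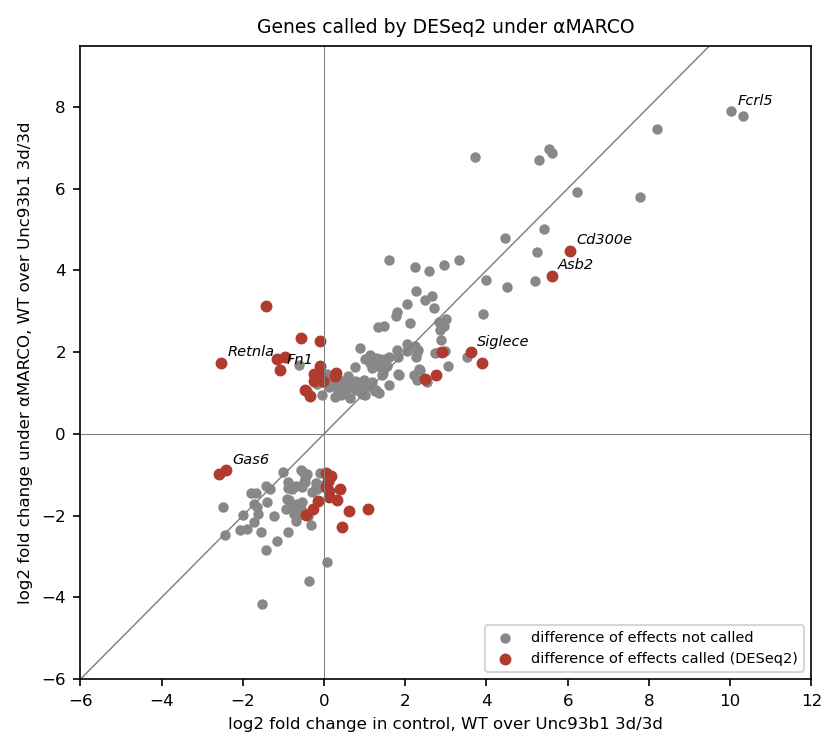
Log2 fold change of WT over Unc93b1 3d/3d in DESeq2, in control (horizontal axis) and under αMARCO (vertical axis), for the 211 genes called under αMARCO that had a value in both, with the line of equal change. Red points are the 40 genes whose genotype effects differed between αMARCO and control by DESeq2, among them Retnla and Fn1, which lie on opposite sides of 0 on the 2 axes.

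The difference of the genotype effects, αMARCO minus control, was tested over all 8 libraries. With edgeR 0 of 16620 genes passed (0%), 2549 had an unadjusted p below 0.05 (15.3%) and the smallest adjusted p was 0.164. DESeq2 called 211 of 13720 genes (1.54%), and 742 of 12226 (6.07%) without the second Unc93b1 3d/3d αMARCO library. Of the genes with such a call that are named here, Fn1 and Cdh1 were not called without that library. Genes that were higher in WT under αMARCO but not in control included Retnla, at 6.11 and 5.65 CPM in WT and 17.5 and 49.9 CPM in Unc93b1 3d/3d control TAMs (difference of the effects 4.27 ± 0.62 SE, DESeq2 adjusted p = 4.2e-08). Fn1 was at 205 and 88.1 CPM against 264 and 347 CPM in control (2.64 ± 0.56 SE), and Hk3 at 236 and 304 CPM against 328 and 348 CPM (1.27 ± 0.27 SE). The second Unc93b1 3d/3d αMARCO library held the lowest Fn1 value of the treated libraries, and without it the difference for Fn1 had a DESeq2 adjusted p of 0.0754.

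Several genes were lower in WT than in Unc93b1 3d/3d control TAMs, and their genotype effect moved towards WT under αMARCO. Of the 27 genes of efferocytosis and resident-like macrophages, 5 moved towards WT and 1 towards Unc93b1 3d/3d by DESeq2. Among all 13720 genes with an adjusted p, 110 moved towards WT and 101 towards Unc93b1 3d/3d. Stab1, a scavenger receptor, was at 319 and 354 CPM in WT and 1357 and 1415 CPM in Unc93b1 3d/3d control TAMs and at 998 and 900.3 CPM against 1076 and 589 CPM under αMARCO (2.27 ± 0.38 SE, DESeq2 adjusted p = 4e-06). Abca1 was at 103 and 119.6 CPM against 433 and 421 CPM in control (2.45 ± 0.38 SE). Dgat2, which makes triglycerides, was at 10.3 and 7.04 CPM against 126 and 118 CPM in control and at 7.42 and 10.8 CPM against 10.7 and 13.7 CPM under αMARCO (3.44 ± 0.40 SE), where the genotypes overlapped. F13a1, a coagulation factor of tissue macrophages, was at 111 and 78.1 CPM against 286 and 266 CPM in control and 211 and 185 CPM against 194 and 148 CPM under αMARCO (1.79 ± 0.33 SE). Folr2, a folate receptor, was at 15.2 and 15.3 CPM against 26.2 and 28.9 CPM in control and 15.1 and 14.2 CPM against 8.98 and 6.73 CPM under αMARCO (1.78 ± 0.34 SE), and Adam8, a membrane protease, at 969 and 989.9 CPM against 1688 and 1483 CPM in control and 1858 and 1772 CPM against 1292 and 1075 CPM under αMARCO (1.34 ± 0.24 SE). Gas6 kept its direction with a smaller difference, from 53.3 and 52.4 CPM against 249 and 303 CPM in control (1.51 ± 0.25 SE).

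Of 17 markers of mature migratory dendritic cells tested, 7 moved towards Unc93b1 3d/3d and 0 towards WT by DESeq2. Over all 13720 genes with an adjusted p, 101 moved towards Unc93b1 3d/3d and 110 towards WT. Ccr7, which guides dendritic cells to lymph nodes, was at 214 and 119 CPM in WT and 16.4 and 11.1 CPM in Unc93b1 3d/3d control TAMs and at 10.6 and 16.5 CPM against 9.25 and 12 CPM under αMARCO (-3.21 ± 0.50 SE, DESeq2 adjusted p = 4.29e-07). Ccl22 was at 183 and 79.1 CPM against 18.2 and 16.8 CPM in control and 5.58 and 10.9 CPM against 8.08 and 8.5 CPM under αMARCO (-2.88 ± 0.57 SE), and Il12b at 26.1 and 23.2 CPM against 0.816 and 0.71 CPM in control (-3.11 ± 0.62 SE). Ly75, the uptake receptor DEC-205, and Serpinb6b were at 38.3 and 23.3 CPM and 77.6 and 43.6 CPM in WT control TAMs and did not exceed 7.90 CPM under αMARCO in any library (-2.55 ± 0.51 and -2.49 ± 0.50 SE). The 18 markers of mature migratory dendritic cells summed to 2344 and 1633 CPM in WT and 823 and 799 CPM in Unc93b1 3d/3d control TAMs, and to 891 and 993 CPM against 843 and 1011 CPM under αMARCO. The NK and cytotoxic cell markers summed to 53.2 and 65.1 CPM in WT and 51.4 and 70.1 CPM in Unc93b1 3d/3d TAMs under αMARCO. The median difference of the effects in DESeq2 was -1.28 for the T cell markers, with 2 called towards Unc93b1 3d/3d and 0 towards WT, and -1.55 for the NK and cytotoxic cell markers, with 0 called. The part of such cells in these differences was not tested. Siglece had a smaller genotype difference under αMARCO than in control, where it was at 155 and 184 CPM against 14.9 and 12.2 CPM (-1.62 ± 0.30 SE). Matn2, a matrix protein, reversed, from 15.3 and 12.9 CPM against 8.85 and 9.23 CPM in control to 3.2 and 4.71 CPM against 16.5 and 13.4 CPM under αMARCO (-2.52 ± 0.42 SE). Rpl17, a ribosomal protein gene with many processed copies in the genome, was at 209.7 and 179 CPM against 75.1 and 46 CPM in control and 53.8 and 102 CPM against 134 and 233 CPM under αMARCO (-2.88 ± 0.52 SE), highest in the library that stood apart.

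**Figure D5:**
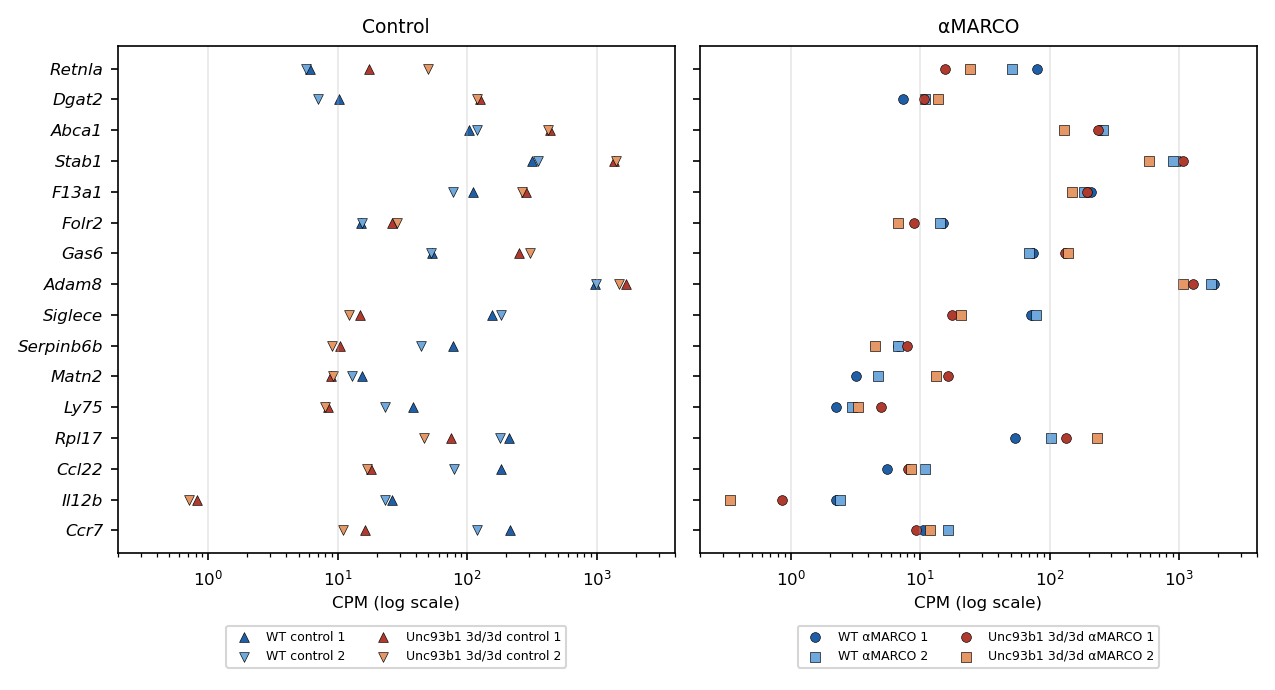
CPM on a log scale in control (left) and αMARCO (right) libraries for the 16 protein-coding genes with the smallest p for the difference of the genotype effects in DESeq2, 8 in each direction, one point per library with a marker shape for each replicate. Dgat2 and Stab1 separate the genotypes in control and overlap under αMARCO, and Ccr7 exceeds 100 CPM in the WT control libraries alone.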

How the data were processed

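RNA-seq counts of 8 libraries, 2 per genotype and treatment, were taken as deposited. The authors trimmed reads with fastp, aligned them to GRCm38 with HISAT2 2.0.5 and counted them with featureCounts 1.5.0. Whether strand was used is not given in the sources used here. The tables also held FPKM and normalized signal values made by the authors, and their DESeq2 columns, which were not used. Some gene names in the αMARCO table, 23 in all, had become dates and were restored from the other tables. Counts were tested with edgeR 4.0.16 (TMM, filterByExpr, quasi-likelihood, Benjamini-Hochberg), and with DESeq2 1.42.0 as the alternative, in R 4.3.3. CPM used TMM factors over the 8 libraries. Depth was 15182618 to 26411936 counts, and 3 counts correspond to 0.114 to 0.198 CPM, a limit for counting error only.

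The members and lists were chosen with earlier results of these data known. Genes were named as genes the study discusses for TAMs and as the 12 protein-coding genes per direction with the largest change. The latter had to have groups that do not overlap and a mean of at least 5 CPM in the higher group. Others were the 5 most abundant per direction and called or abundant members of each list. The 8 per direction with the smallest p for the difference of effects were named too. The rules were applied to DESeq2 calls after edgeR's count was seen, and other genes named (Acod1, Adgre1, Cd3d, Cd3g, Cdh5, Col1a1, Csf1r, Dcn, Ear2, Fcrls, Fpr1, Fpr2, Gbp2, Gpr34, Hk3, Isg15, Lyz1, Map3k8, Nfkbia, Nod1, Pdgfra, Slc11a2, Tnfaip3 and Xcr1) were chosen after their values were seen. Some genes that the rules pick are not reported here.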

Additional observations from a re-analysis of the deposited data

Results flagged for a closer look

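For 29 of the genes named, the genotype effect under αMARCO differed from that in control by DESeq2's test of the difference itself, while edgeR called 0 of 16620 genes, with 2549 at an unadjusted p below 0.05. Values are αMARCO minus control on the log2 scale, and a positive value is a move towards WT.

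The difference was 3.44 for Dgat2, 2.45 for Abca1, 2.27 for Stab1, 1.79 for F13a1, 1.78 for Folr2, 1.60 for Fcrls and 1.51 for Gas6. It was 4.27 for Retnla, 2.99 for Lyz1, 2.64 for Fn1, 1.34 for Adam8 and 1.27 for Hk3.

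Towards Unc93b1 3d/3d, the difference was -3.21 for Ccr7, -3.11 for Il12b, -2.88 for Ccl22, -2.55 for Ly75 and -2.49 for Serpinb6b. It was -1.73 for Asb2, -1.62 for Siglece, -1.57 for Cd300e, -1.31 for Fpr2 and -0.90 for Pecam1, and -2.92 for Cdh1, -2.88 for Rpl17, -2.74 for Rnf181, -2.52 for Matn2, -2.15 for Cd79b, -1.95 for Mfge8 and -1.51 for Adm. Without the second Unc93b1 3d/3d αMARCO library Cdh1 and Fn1 were not called.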

How the results depend on the processing

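Under αMARCO the number of genes called rested on the tool and on single libraries. In place of 0, DESeq2 called 214 (140 higher in WT, 74 higher in Unc93b1 3d/3d), edgeR without a low-count filter 61 (45 and 16), with the replicate block 97 (63 and 34) and with all 8 libraries in 1 model 108 (76 and 32). Leaving out 1 library in turn gave 17 to 6366 calls in edgeR (17 to 3308 higher in WT, 0 to 3058 higher in Unc93b1 3d/3d) and, in DESeq2, 25 without the first WT library (19 and 6), 20 without the second (17 and 3), 4567 without the first Unc93b1 3d/3d library (2371 and 2196) and 681 without the second (392 and 289). In each of these the group left with 1 library is assumed to vary as the other pair does, so that pair alone gives the spread. Both tools gave their highest count without the first Unc93b1 3d/3d library and their lowest without the second WT library. Offsets for gene length and GC content, chosen after seeing the data as were the DESeq2 fits with a library left out, gave 5 calls in edgeR (5 higher in WT) and 256 in DESeq2 (145 and 111). Other scaling, at least 10 counts in every library and other fold change thresholds left edgeR at 0. The replicate numbers share only a number: same-numbered libraries had deviations correlated at 0.151 under αMARCO and 0.016 in control.

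In control, edgeR's 2025 calls fell to 951 at a log2 change of 1 or more and were 1493 to 2596 under the other alternatives apart from 2929 with no fold threshold. For the difference of effects, in place of 0, DESeq2 called 211, no low-count filter gave 152, and leaving out 1 library gave 0 to 6440 in edgeR and 742 in DESeq2 without the second Unc93b1 3d/3d αMARCO library. The Unc93b1 3d/3d pair was 2.54 times as far apart as the WT pair over all genes and 3.92 times over the 500 most variable. The cause of these shifts was not tested.

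Of 127 genes named that were tested, 114 kept their direction under every alternative run for them, at most 16 per gene. The 13 that did not had no DESeq2 call between the genotypes under αMARCO on the 4 libraries. For 3 of them the value in edgeR or an alternative rounds to 0, and over the alternatives it ran from -0.57 to 0.41 for Ccl22, from -0.00 to 0.66 for Ccr7 and from -0.18 to 0.22 for Tlr7. For the others, with 1 library left out in turn in edgeR, and at the reversed value in DESeq2 given in brackets, the log2 fold change ran from -0.11 to 0.43 for Casp1 (-0.10), -0.84 to 0.69 for Cdh5 (0.69), -0.50 to 2.20 for Col1a1 (-0.48), -0.48 to 0.03 for Il18 (0.05) and -0.58 to 0.48 for Mertk (0.49). It ran from -0.24 to 0.05 for Mrc1 (0.05), -0.02 to 0.40 for Nlrp3 (-0.01), -0.18 to 0.28 for Nr4a1 (-0.06 and -0.18), -0.22 to 0.60 for Serpinb6b (-0.21) and -0.18 to 0.69 for Stab1 (-0.17). The median took both signs over the alternatives for 21 of 48 lists.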
